A study of Mus musculus with 8 samples.

Results

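The 4 genes described here are Slc12a2, Slc12a5, Slc12a4 and Slc12a7, which encode cation-chloride cotransporters. They were chosen by their gene symbols and are 4 of the 23284 symbols in the count files and 4 of the 9 listed symbols that begin with Slc12a. RNA-seq was performed on dorsal cortex of C57BL/6 embryos at E15.5 (E for embryonic day), with 4 libraries labelled WT (ErbB4+/+) and 4 labelled ErbB4 KO (ErbB4-/-). The question of the comparison was which cortical genes change when ErbB4, a receptor tyrosine kinase for neuregulins, is lost. The ErbB4-/- mice carry an ErbB4 transgene that the alpha-MHC promoter drives in the heart, since loss of the receptor otherwise stops heart development. The lines were bred as homozygotes, so embryos of different genotype came from different litters, and genotype and litter cannot be told apart. Whether each library came from 1 embryo was not given in the sources used here, so p-values measure the spread between these libraries.

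Cation-chloride cotransporters move chloride across the cell membrane together with sodium, potassium or both, and they set the chloride level inside the cell. Slc12a2 encodes NKCC1, which takes up chloride with sodium and potassium. Slc12a5, Slc12a4 and Slc12a7 encode KCC2, KCC1 and KCC4, which export chloride with potassium. In immature neurons a high chloride level makes the transmitter GABA depolarizing. As neurons mature, KCC2 rises, chloride falls and GABA becomes inhibitory, and for this reason the balance of Slc12a2 and Slc12a5 is often followed in developing cortex. KCC2 is largely restricted to neurons, whereas NKCC1, KCC1 and KCC4 also occur in progenitors, glia and epithelia.

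Slc12a5 has a pair of start sites in RefSeq, 7142 nucleotides apart, from which transcripts with different first exons begin, and the count does not separate them. The 250 bases before each start are shown because Slc12a5 transcription is known to be regulated through elements near these starts, including an E-box bound by USF1 and USF2. The sequences are those of RefSeq (table build GRCm38.p6), each found once and without mismatch on chromosome 2 of NCBIM37, where they lie on the plus strand at chr2:164786096-164786345 and chr2:164793238-164793487. They are printed 5′ to 3′ with the E-box CACGTG in capitals.
start 1: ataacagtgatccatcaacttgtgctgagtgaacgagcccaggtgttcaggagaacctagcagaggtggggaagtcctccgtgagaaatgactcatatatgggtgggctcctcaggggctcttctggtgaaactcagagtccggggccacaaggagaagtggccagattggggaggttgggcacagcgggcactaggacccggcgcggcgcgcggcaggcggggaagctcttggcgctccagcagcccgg
start 2: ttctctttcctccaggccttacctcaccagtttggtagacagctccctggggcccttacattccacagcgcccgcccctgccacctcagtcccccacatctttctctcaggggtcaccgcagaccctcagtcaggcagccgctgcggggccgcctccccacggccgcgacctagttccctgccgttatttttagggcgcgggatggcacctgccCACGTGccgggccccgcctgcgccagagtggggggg

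Start 1 holds no CACGTG, and start 2 holds 1, whose first base lies at -36 from the start. This motif is a palindrome, so both strands read the same. It occurs in 1978 of the 32851 RefSeq promoter windows of this length (6.02%). GCGGGGGCG, the element of the EGR factors, was searched on both strands and is in neither window, and 845 of all windows (2.57%) hold it. The GC content is 61.2% before start 1 and 67.2% before start 2. These matches describe the windows only, since no binding was measured here.

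In the GENCODE annotation of NCBIM37 (mm9), Slc12a2 lies on the plus strand at chr18:58038332-58106475 and Slc12a5 on the plus strand at chr2:164786316-164825228. Slc12a4 lies on the minus strand at chr8:108467490-108489974 and Slc12a7 on the plus strand at chr13:73870542-73954191. The annotation gives 2 transcripts of Slc12a2, 7 of Slc12a5, 5 of Slc12a4 and 3 of Slc12a7. Each count pools all transcripts of its gene. Reads from a stretch that genes share on the same strand cannot be told apart. Because the libraries do not keep the strand, this also holds for genes on opposite strands. Exons of Slc12a4 share 361 nucleotides, 8.49% of their summed length, with Gm16156 on the opposite strand. Exons of Slc12a5 share 188 nucleotides (2.62%) with Gm11459 on the same strand. Neither Gm16156 nor Gm11459 is among the counted symbols. The exons of Slc12a2 and Slc12a7 overlap no other annotated gene.

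Between 28205703 and 48871480 reads were counted per library. The targeted gene, Erbb4, was not lower in the libraries labelled ErbB4-/-. Its CPM (reads scaled to a common library size by TMM normalization) was 8.99, 19.9, 25.3 and 19.2 in the ErbB4+/+ libraries and 20.9, 24.6, 20.7 and 23.5 in the libraries labelled ErbB4-/-. The log2 fold change was 0.28 ± 0.23 (SE, edgeR quasi-likelihood adjusted p = 0.812). It was 0.062 without ErbB4+/+ replicate 1 and 0.48 without ErbB4+/+ replicate 3 (edgeR adjusted p = 0.938 and 0.733), and per-gene counts do not show from which exons of Erbb4 the reads came. ErbB4+/+ replicate 1 stood apart from the other libraries. In it, long transcripts had fewer reads than in the others: the deviation of a gene from its mean correlated with transcript length across 14253 genes at a Spearman's rho of -0.58, against 0.038 to 0.223 in the other 7 libraries. By Xist and Ddx3y, ErbB4+/+ replicate 4 and all 4 libraries labelled ErbB4-/- had the Y-linked pattern and the other 3 ErbB4+/+ libraries the Xist pattern, so this pattern moved with the genotype. In the following, ErbB4-/- stands for the libraries so labelled.

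None of the 4 cotransporter genes passed the test of a difference between the groups. All 4 were detected in every library, with at least 333 reads each. Their log2 fold changes, libraries labelled ErbB4-/- over ErbB4+/+, were between 0.021 and 0.12, and their CPM overlapped between the groups. At an adjusted p under 0.05, edgeR called 0 of the 4, beside 4 of the 14696 genes tested (0.0272%). At an unadjusted p under 0.05 it called 0 of the 4 as well, beside 812 genes (5.53%), and DESeq2 and limma-voom also called 0 of the 4. The median log2 fold change of the 4 was 0.068, beside -0.0022 over all genes tested. Among the 5 libraries with the Y-linked pattern, which include only 1 ErbB4+/+ library and so no spread of that group, the log2 fold changes were 0.037 (Slc12a2), 0.0031 (Slc12a5), 0.11 (Slc12a4) and 0.044 (Slc12a7), given as values without a test. In bulk tissue, fewer cells of a type and less RNA per cell cannot be told apart.

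**Figure D1:**
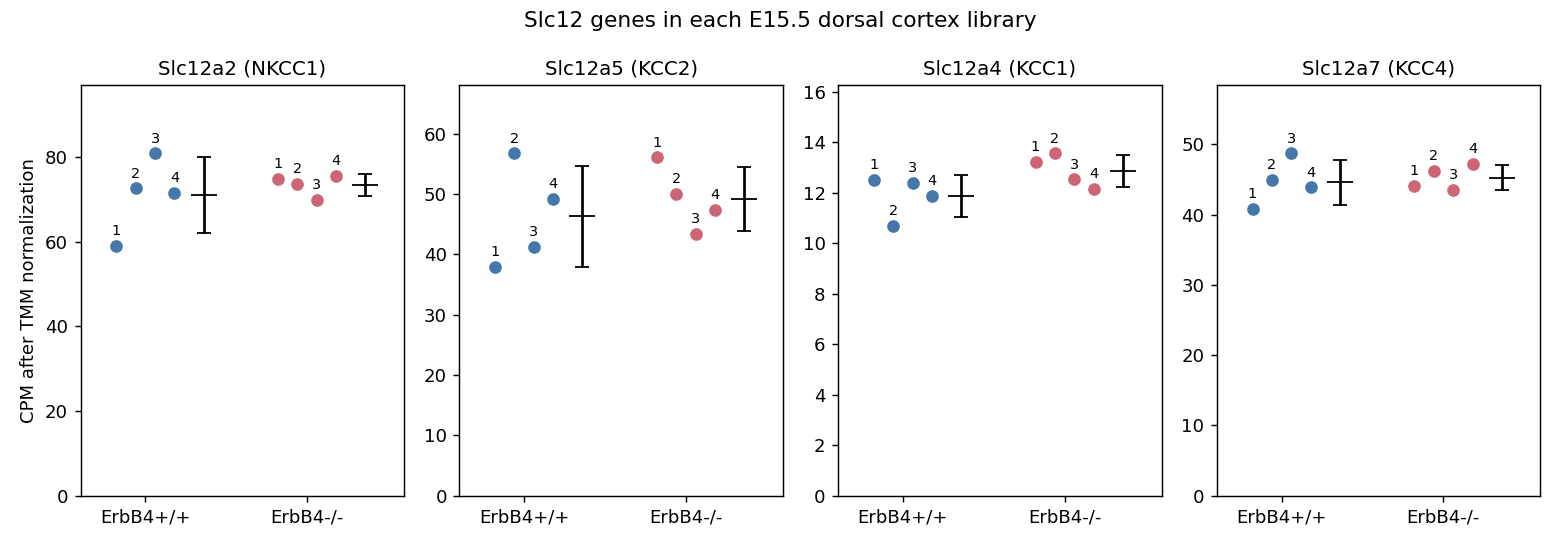
CPM after TMM normalization of Slc12a2, Slc12a5, Slc12a4 and Slc12a7 in each library, with points for the 4 ErbB4+/+ and the 4 ErbB4-/- libraries and the group mean with its SD. The points of the groups overlap for every gene, and the lowest point of Slc12a2 (59.0) and of Slc12a5 (38.0) is ErbB4+/+ replicate 1.

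Slc12a2, the chloride importer, had 59.0, 72.6, 80.9 and 71.6 CPM in ErbB4+/+ replicates 1 to 4 and 74.8, 73.7, 69.8 and 75.5 CPM in ErbB4-/- replicates 1 to 4. All 4 libraries labelled ErbB4-/- fell within the range of the ErbB4+/+ libraries, which was set by replicate 1 at its low end and replicate 3 at its high end. The group means were 71.0 ± 9.0 and 73.5 ± 2.55 CPM (SD, n = 4 each). The log2 fold change was 0.048 ± 0.085 (SE, edgeR adjusted p = 0.902), and its 95% interval ran from -0.14 to 0.23, which is 0.909-fold to 1.18-fold. This direction is not fixed: it was -0.031 without ErbB4+/+ replicate 1 and -0.015 with the trend on transcript length removed. The gene's longest transcript has 6520 nucleotides, longer than 90.5% of the tested genes.

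Slc12a5, the neuronal chloride exporter, had 38.0, 56.8, 41.3 and 49.2 CPM in the ErbB4+/+ libraries and 56.1, 50.04, 43.4 and 47.3 CPM in the libraries labelled ErbB4-/-. The ErbB4+/+ libraries again spanned those labelled ErbB4-/-, with replicate 1 the lowest of all 8 and replicate 2 the highest. The means were 46.3 ± 8.40 and 49.2 ± 5.32 CPM. The log2 fold change was 0.089 ± 0.12 (SE, edgeR adjusted p = 0.871), with an interval from -0.17 to 0.35 (0.886-fold to 1.28-fold), the widest of the 4. It was 0.0075 without ErbB4+/+ replicate 1 and 0.20 without ErbB4+/+ replicate 2, and neither passed the test (edgeR adjusted p = 0.994 and 0.543). Between 1065 and 2763 reads of Slc12a5 were counted per library.

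Slc12a4, which encodes the widely expressed KCC1, had 12.5, 10.7, 12.4 and 11.9 CPM in the ErbB4+/+ libraries and 13.2, 13.6, 12.5 and 12.1 CPM in the libraries labelled ErbB4-/-. The 2 highest values of the 8 belonged to ErbB4-/- replicates 1 and 2, and ErbB4+/+ replicate 1 was the highest of its own group. The means were 11.9 ± 0.835 and 12.9 ± 0.646 CPM. The log2 fold change was 0.12 ± 0.085 (SE, edgeR adjusted p = 0.810), with an interval from -0.069 to 0.30 (0.953-fold to 1.23-fold). It was above 0 under all 18 alternative settings, from 0.069 to 0.14, with adjusted p from 0.733 to 1.00. This gene has the shortest longest transcript of the 4, 3755 nucleotides, longer than 62.2% of the tested genes.

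Slc12a7, which encodes KCC4, had 40.8, 44.9, 48.7 and 43.9 CPM in the ErbB4+/+ libraries and 44.1, 46.2, 43.6 and 47.2 CPM in the libraries labelled ErbB4-/-. As for Slc12a2, ErbB4+/+ replicate 1 was the lowest and ErbB4+/+ replicate 3 the highest of the 8. The means were 44.6 ± 3.27 and 45.3 ± 1.74 CPM. The log2 fold change was 0.021 ± 0.067 (SE, edgeR adjusted p = 0.954), the smallest of the 4, with the narrowest interval, -0.13 to 0.17 (0.916-fold to 1.12-fold). It was below 0 with the trend on length removed (-0.030), without ErbB4+/+ replicate 1 (-0.019) and without ErbB4-/- replicate 4 (-0.0030).

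Levels were compared between genes only per length, as CPM per kilobase of the longest annotated transcript. On this scale Slc12a2 was the highest of the 4. It had 11.1 ± 0.961 CPM per kilobase (SD, n = 8), Slc12a7 8.76 ± 0.477, Slc12a5 7.93 ± 1.11 and Slc12a4 3.29 ± 0.232. Slc12a9, which encodes a protein related to these cotransporters, lay between Slc12a5 and Slc12a4 at 6.36 ± 0.647, and Slc12a8 had 0.351 ± 0.0744. Slc12a1 and Slc12a3, the cotransporters of the kidney tubule, had only 0 to 7 and 0 to 5 reads per library and were not tested.

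Slc12a2 was above Slc12a7 in 8 of 8 libraries, although their ranges overlapped. Slc12a7 and Slc12a5 are neighbours that did not separate, with Slc12a7 higher in 6 of 8 libraries. Slc12a4 was below Slc12a9 in 8 of 8 libraries with no overlap. Divided by the summed length of all exons instead, the 4 genes kept this order, with means of 11.1 for Slc12a2, 7.82 for Slc12a7, 6.65 for Slc12a5 and 2.91 for Slc12a4.

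**Figure D2:**
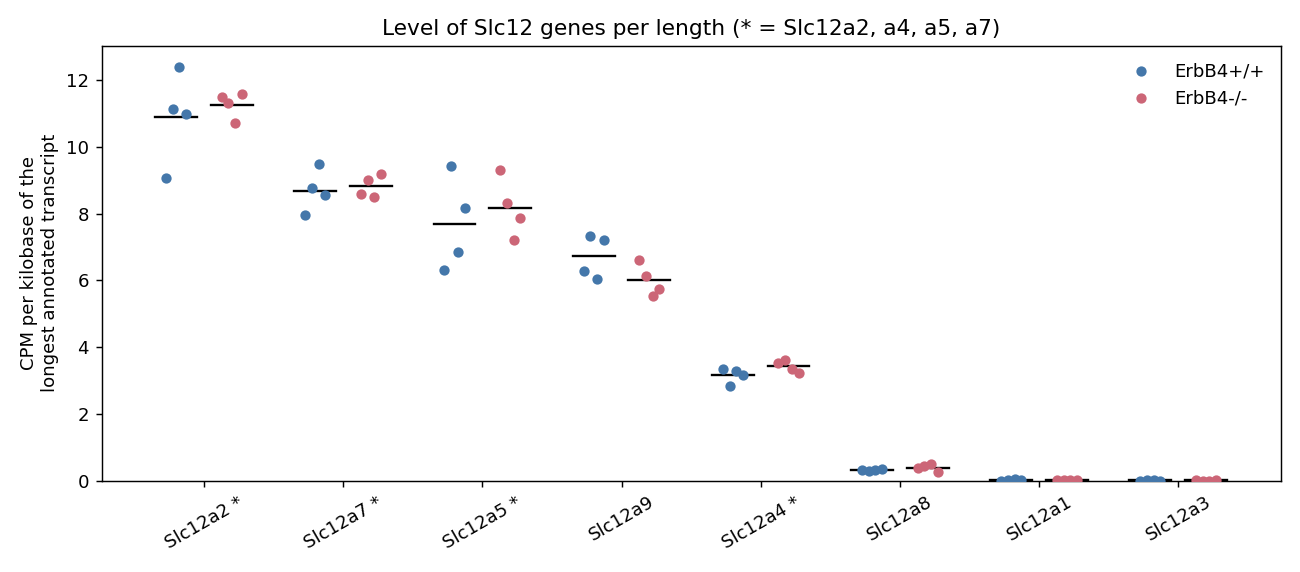
CPM per kilobase of the longest annotated transcript for Slc12 genes, with points for each library by genotype and lines for the group means, and an asterisk for Slc12a2, Slc12a4, Slc12a5 and Slc12a7. Slc12a2 lies above the other 3 marked genes by its mean (11.1), the exporters Slc12a7 and Slc12a5 overlap, and Slc12a1 and Slc12a3 lie at the bottom.

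Between the groups, the means per kilobase were 10.9 ± 1.38 in ErbB4+/+ and 11.3 ± 0.391 in ErbB4-/- for Slc12a2, and 7.69 ± 1.39 and 8.17 ± 0.883 for Slc12a5 (SD, n = 4 each). Those of Slc12a4 were 3.16 ± 0.222 and 3.42 ± 0.172, and those of Slc12a7 were 8.69 ± 0.636 and 8.82 ± 0.339. The order of the 4 genes by group mean was thus the same in both groups. Neither Slc12a9 nor Slc12a8 passed the test. Slc12a9 differed by -0.16 ± 0.090 (SE) on the log2 scale and Slc12a8 by 0.29 ± 0.22 (SE), both with an edgeR adjusted p of 0.810. Over the alternative settings Slc12a9 ran from -0.26 (Xist as a covariate) to -0.11 (without ErbB4+/+ replicate 2) and Slc12a8 from 0.17 to 0.43 (ErbB4-/- replicates 3 and 4 left out, respectively), and neither passed under any of them.

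The ratio of Slc12a2 to Slc12a5 reads, importer over neuronal exporter, is independent of library size. It was 1.55, 1.28, 1.96 and 1.46 in ErbB4+/+ replicates 1 to 4 and 1.33, 1.47, 1.61 and 1.59 in ErbB4-/- replicates 1 to 4. Slc12a2 had more reads than Slc12a5 in all 8 libraries, and the range of the ErbB4+/+ libraries enclosed that of the libraries labelled ErbB4-/-. The means were 1.56 ± 0.287 and 1.502 ± 0.127 (SD, n = 4 each), or 1.44 ± 0.265 and 1.39 ± 0.118 when each count was divided by transcript length. As a share of the reads of both genes, Slc12a2 had 60.6% ± 4.21 and 60.0% ± 2.09.

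On the log2 scale the mean ratio was 0.63 ± 0.26 in ErbB4+/+ and 0.58 ± 0.12 in ErbB4-/-, a difference of -0.042 (exact two-sided permutation test over 70 assignments, p = 0.857, smallest possible p 0.0286). Shifts between -0.55 and 0.33 were not rejected at 0.05 by the same test, so a sizeable change of the ratio in either direction is within what these libraries allow. The difference was 0.072 without ErbB4+/+ replicate 3 (exact permutation p = 0.457) and 0.014 without ErbB4-/- replicate 1 (p = 0.914), so it has no fixed direction. The counting error of the log2 ratio was 0.036 to 0.057 per library, below the spread of either group. ErbB4+/+ replicate 1, which was low in both genes, had a ratio of 1.55, between those of its group.

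**Figure D3:**
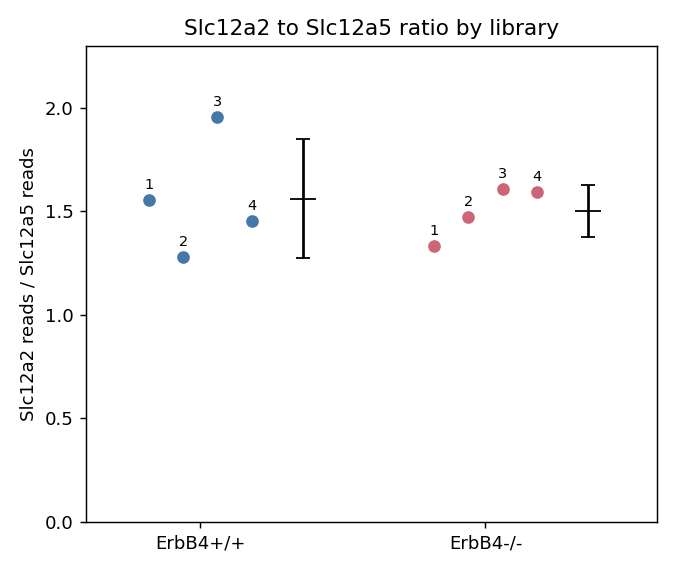
Slc12a2 reads divided by Slc12a5 reads in each library by genotype, with the group mean and SD. Every library lies above 1, and the ErbB4-/- libraries (1.33 to 1.61) lie within the range of the ErbB4+/+ libraries (1.28 to 1.96).

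Across the 8 libraries, Slc12a2 and Slc12a7 rose and fell together. Their log2 CPM correlated at Pearson's r = 0.911 (exact permutation p = 0.000967, adjusted over 6 pairs of the 4 genes 0.0058) and Spearman's rho = 0.929 (exact permutation p = 0.00223, adjusted 0.0134). Within the ErbB4+/+ libraries r was 0.971 and within those labelled ErbB4-/- 0.660, each over 4 libraries only. Without the 2 libraries farthest from the median of Slc12a2, ErbB4+/+ replicates 1 and 3, r was 0.703. It was 0.869 without replicate 1 alone and 0.778 with the trend on transcript length removed. Many genes share such variation: 196 of the other 14695 tested genes (1.33%) correlated with Slc12a2 at least this strongly, as did 51 (0.347%) with Slc12a7.

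For Slc12a2 and Slc12a5, r was 0.438 (exact permutation p = 0.286, adjusted 0.858). It was -0.305 without ErbB4+/+ replicate 1 and -0.177 with the trend on transcript length removed. Without ErbB4+/+ replicates 1 and 3 r was 0.466, and it was 0.375 within ErbB4+/+ and 0.691 within ErbB4-/-. The difference between the correlations of the pairs was not tested. The other 4 pairs had r between -0.218 and 0.187 and adjusted p of at least 0.858 by the same test.

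**Figure D4:**
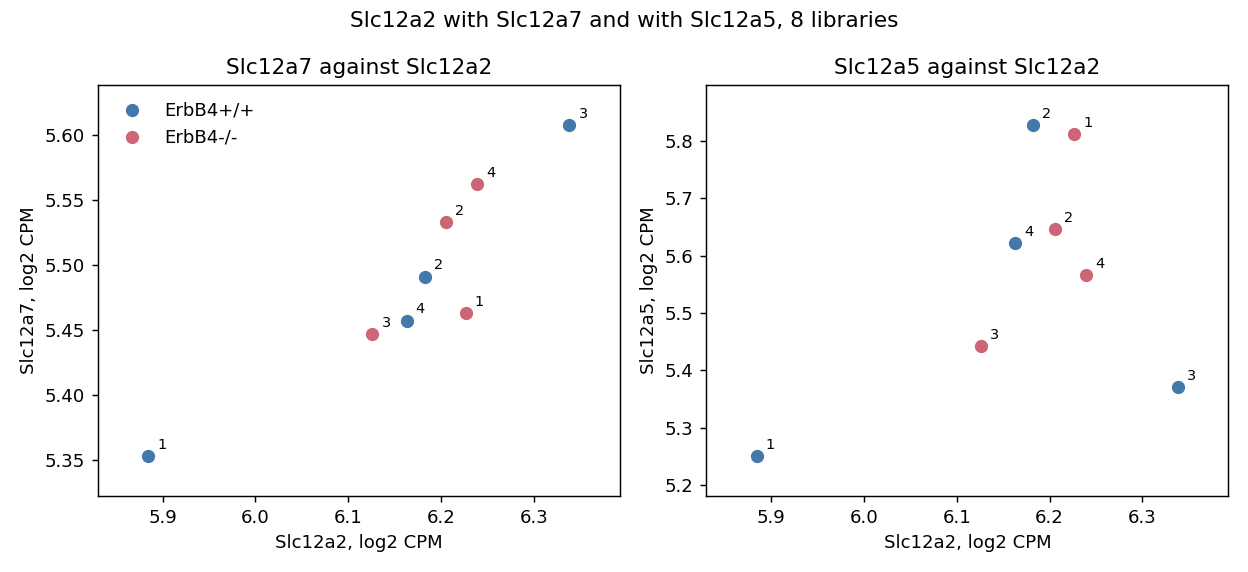
Log2 CPM of Slc12a7 (left) and of Slc12a5 (right) against that of Slc12a2 in the 8 libraries, coloured by genotype and numbered by replicate. Slc12a7 follows Slc12a2 (r = 0.911), with ErbB4+/+ replicates 1 and 3 at the ends, and for Slc12a5 r was 0.438.

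The genes whose log2 CPM was most like that of each cotransporter were listed over the same 8 libraries, as a description. For Slc12a2 they were Ubap2l (r = 0.984), Asap2 (0.981) and Zeb1 (0.980). For Slc12a5 they were Prrt1 (0.994), Gtpbp8 (0.980) and Rap1gap (0.969). For Slc12a4 they included Gng12 (0.938) and Fsbp (0.937), and for Slc12a7 Ric8b (0.977), Whsc1 (0.959) and Snrnp200 (0.957). Without ErbB4+/+ replicate 1, Prrt1 (0.991) and Gtpbp8 (0.988) still led for Slc12a5 and Ric8b (0.970) was again among the 3 leading genes for Slc12a7. For Slc12a2 the leading genes then were Zfp273 (0.971), BC002230 (0.968) and Psmc1 (0.966), and for Slc12a4 Arpc4 (0.984), Gabra2 (0.982) and Ythdf1 (0.977), none of which led over all 8.

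Markers of other cells were measured beside these genes. Neuron markers were abundant, as the label of cortex requires: the summed CPM of 11 of them was 9183 to 9390 in ErbB4+/+ and 9443 to 9956 in ErbB4-/-. The groups did not overlap in this sum. They overlapped for each of the 11 and in their mean log2 CPM (8.97 to 9.04 and 9.02 to 9.11). Of the 11, 8 had a log2 fold change above 0 and 3 below 0, and 2 had an unadjusted p under 0.05 (background 5.53%). The sum of 9 radial glia and progenitor markers was 2104 to 2691 and 2080 to 2309, and 8 of the 9 had a log2 fold change below 0 (background 49.2% above 0). At an unadjusted p under 0.05 there were 4 of the 9 (background 5.53%), and none passed the adjusted threshold. Slc12a5 varied against the mean log2 CPM of the progenitor markers (r = -0.702, exact permutation p = 0.0557, adjusted over 8 relations 0.445; rho = -0.690, p = 0.0694, adjusted 0.524), but r was -0.471 without ErbB4+/+ replicate 1 and -0.512 without the 2 libraries farthest from the median. Against the neuron markers Slc12a5 had r = 0.311, which was 0.117 without ErbB4+/+ replicate 1 and 0.888 without the 2 libraries farthest from the median, ErbB4-/- replicates 2 and 3. Slc12a2 had r = -0.014 against them, which was -0.741 without ErbB4+/+ replicate 1 and 0.056 without those 2, so both values depend on which libraries enter. The smallest adjusted p of Pearson's r among the remaining 7 relations was 0.763. The part of the cell makeup in any value of the 4 genes was not tested.

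Markers of the choroid plexus, an epithelium in which Slc12a2 is abundant, stood out in 1 library. Ttr, its most abundant transcript, had 572 CPM in ErbB4-/- replicate 3 and 0.571 to 8.76 CPM in the other 7. The sum of 6 choroid plexus markers was 2.25 to 13.2 CPM in ErbB4+/+ and 2.61 to 624 CPM in ErbB4-/-. Slc12a2 was lowest of its group in that library (69.8 CPM), and its log2 fold change without it was 0.072. Meningeal markers summed to 13.1 to 15.8 and 12.5 to 20.9 CPM, and endothelial markers to 116 to 120 and 118 to 124. Markers of interneurons and the ganglionic eminence summed to 549 to 711 and 529 to 705 CPM, those of microglia to 43.8 to 51.3 and 45.3 to 53.5, and those of the oligodendrocyte lineage to 43.6 to 58.9 and 50.6 to 64.8. Red blood cell markers summed to 31.8 to 56.6 and 20.8 to 35.2 CPM, with Hba-a1 and Hba-a2 at 0 in every library. At an unadjusted p under 0.05 (background 5.53%) there were 2 of 4 oligodendrocyte lineage markers and 4 of 4 tested choroid plexus markers, all higher in ErbB4-/-. There were also 2 of 4 tested red blood cell markers and 1 of 7 interneuron markers, all lower in ErbB4-/-, and none of the meningeal, endothelial and microglial ones. Each of the 4 choroid plexus markers was highest in ErbB4-/- replicate 3. There Folr1 had 9.09 CPM against 0.107 to 0.706 in the other 7, Aqp1 14.7 against 0.540 to 1.05 and Clic6 25.9 against 0.499 to 3.00. In ErbB4-/- replicates 1, 2 and 4 none of the 4 markers exceeded the highest ErbB4+/+ library. Ttr, for example, had 7.88, 0.747 and 3.62 CPM there, against 0.571 to 8.76 in ErbB4+/+. The higher group mean of these 4 markers thus rests on 1 library. Of the oligodendrocyte lineage markers all 4 had a log2 fold change above 0 (background 49.2%). For 1 of them, Sox10, the groups did not overlap (background 3.34%), with a log2 fold change of 0.61 (edgeR adjusted p = 0.810).

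The kinases that control these transporters were next examined. The WNK kinases activate SPAK (Stk39) and OSR1 (Oxsr1), which bind the scaffolds Cab39 and Cab39l and phosphorylate the cotransporters, activating NKCC1 and inhibiting the KCCs. KLHL2 and KLHL3 are adaptors that bring WNK kinases to the ubiquitin ligase of CUL3. Of 12 listed genes 11 were tested, and none passed at an adjusted p under 0.05. One, Klhl3, had an unadjusted p under 0.05 (background 5.53%), 9 had a log2 fold change above 0 and 2 below 0 (background 49.2% above 0), and the median was 0.036. The groups did not overlap for 2 of the 11, Klhl2 and Klhl3, beside 3.34% of all genes tested.

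Klhl3 had 3.92, 7.06, 6.23 and 7.12 CPM in ErbB4+/+ and 7.69, 7.90, 8.61 and 8.35 CPM in ErbB4-/-. Every ErbB4-/- library was above every ErbB4+/+ library, and the nearest values of the groups were 7.12 and 7.69. The log2 fold change was 0.41 ± 0.16 (SE, edgeR adjusted p = 0.810). It was 0.26 without ErbB4+/+ replicate 1 and 0.19 among the libraries with the Y-linked pattern. Klhl2 had 95.8, 91.7, 93.9 and 90.1 CPM in ErbB4+/+ and 97.1, 96.8, 105 and 96.8 CPM in ErbB4-/-, with 1 library, ErbB4-/- replicate 3, well above the rest. Its log2 fold change was 0.093 ± 0.053 (SE, edgeR adjusted p = 0.810).

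The levels of the kinases themselves overlapped between the groups. Stk39 had means of 61.6 ± 3.38 CPM in ErbB4+/+ and 55.6 ± 4.99 CPM in ErbB4-/-, a log2 fold change of -0.15 ± 0.074 (SE, edgeR adjusted p = 0.810) that was below 0 under all 18 settings. Oxsr1 had 94.0 ± 2.13 and 96.0 ± 2.43 CPM. Wnk1 had 213 ± 34.9 and 225 ± 10.6 CPM and Wnk2 227 ± 26.0 and 233 ± 7.33 CPM, and in both the lowest library was ErbB4+/+ replicate 1. Wnk4 was low, with means of 2.39 and 2.14 CPM. The scaffold Cab39 had 275 and 276 CPM and Cab39l 31.4 and 31.8 CPM. Cul3 had 186 and 191 CPM, and Nedd4l, which encodes a ubiquitin ligase of membrane transporters, 263 and 274 CPM.

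Genes that act with or on Slc12a5 were tested likewise. NETO2 binds KCC2 and the kainate receptor, and brain creatine kinase (Ckb) binds KCC2 and supplies ATP. Of 9 listed genes 8 were tested, with Egr4 below the count filter, and none passed at an adjusted p under 0.05. Neto2 and Ckb, 2 of the 8, had an unadjusted p under 0.05 (background 5.53%), and in the same 2 the groups did not overlap (background 3.34%). Neto2 had 197, 232, 236 and 216 CPM in ErbB4+/+ and 247, 258, 260 and 237 CPM in ErbB4-/-. Its log2 fold change was 0.18 ± 0.064 (SE, edgeR adjusted p = 0.810), and 0.14 to 0.23 over 18 settings.

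Ckb differed in the other direction. It had 592, 471, 463 and 498 CPM in ErbB4+/+ and 435, 410, 427 and 454 CPM in ErbB4-/-, with ErbB4+/+ replicate 1 far above the rest. Its log2 fold change was -0.23 ± 0.077 (SE, edgeR adjusted p = 0.810), and -0.15 without that library. Ntrk2, the receptor of BDNF, had 133 and 141 CPM, and Usf1, which binds the E-box, 114 and 108 CPM. The median log2 fold change of the 8 genes was 0.010, with 5 above 0 and 3 below 0.

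The sodium-potassium ATPase maintains the gradients on which all Slc12 transporters depend. Atp1b1, one of its beta subunits, had 80.1 ± 8.37 and 93.5 ± 12.7 CPM, a log2 fold change of 0.22 ± 0.10 (SE, edgeR adjusted p = 0.810), and Atp1b3, another, had 86.3 and 82.8 CPM. Of 21 tested genes of other chloride and bicarbonate transporters and channels, none passed the adjusted threshold, 14 were above 0 and 7 below 0, and the median was 0.055. Clcn4-2 (246 and 264 CPM), Clcn3 (153 and 158), Slc4a7 (104 and 103) and Lrrc8d (94.9 and 102) had the highest CPM of these, which is not divided by length and so does not rank their levels. Slc4a4, a sodium-bicarbonate cotransporter named after its values were seen, had 10.6, 17.0, 14.9 and 16.2 CPM in ErbB4+/+ and 19.0, 22.9, 22.9 and 17.3 CPM in ErbB4-/-. It was the 1 gene of the 21 whose groups did not overlap (background 3.34%) and the 1 with an unadjusted p under 0.05 (background 5.53%). Its log2 fold change was 0.48 ± 0.14 (SE, edgeR adjusted p = 0.810), with 0.35 to 0.56 over 18 settings.

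**Figure D5:**
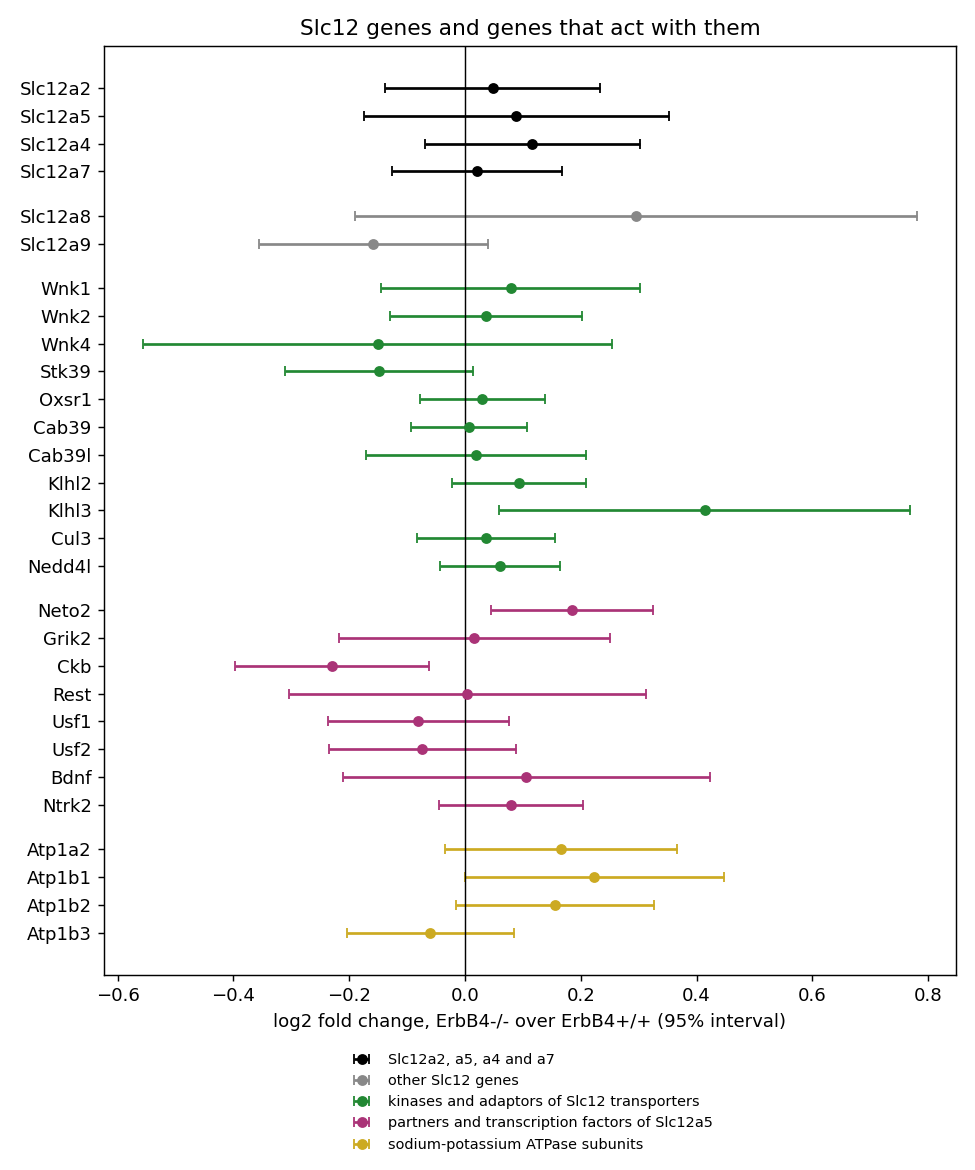
Log2 fold change, ErbB4-/- over ErbB4+/+, of Slc12 genes and of genes that act with them, with the 95% interval of the edgeR fit, which is not adjusted for the number of genes. The intervals of Slc12a2, Slc12a5, Slc12a4 and Slc12a7 cross 0, and no gene shown passed at an adjusted p under 0.05.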

How the data were processed

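Dorsal cortex RNA was polyA-selected, made into libraries without strand and sequenced as short single-end reads. The authors aligned to mm9 by HISAT and ran HTSeq-count, so the deposited values are raw counts, 1 per gene symbol. The gene annotation and counting mode are not given in the sources used here. The deposited DESeq2 table, with the authors' log2 fold changes, p-values and adjusted p-values, was not used.

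Groups came from the labels. Counts of all 8 libraries were fitted with edgeR 4.0.16 in R 4.3.3 (TMM, filterByExpr at minima of 10 counts and 15 in total, genotype only), with Benjamini-Hochberg adjustment over 14696 genes and a threshold of 0.05. Log2 CPM had a prior count of 2. Ratios and correlations were tested by exact permutation in Python 3.11.15. Counting errors assume that reads are independent molecules. Alternatives were DESeq2 1.42.0, limma-voom (limma 3.58.1), other normalizations and filters, the replicate block, Xist as a covariate, removal of the length trend and each library left out. The restriction to libraries with the Y-linked pattern was chosen after seeing the data. Of these fits, only the edgeR fit with TMM and genotype only was tested on simulated counts.

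The cotransporters and all gene lists were chosen with earlier results of these data known. Named are the 4 cotransporters, the other Slc12 genes, the kinases and adaptors, up to 4 genes with the highest mean CPM of each other list together with any past the threshold, the 3 genes most like each cotransporter and Erbb4. Egr4, Slc4a4, Ttr, Xist, Ddx3y, Sox10, Hba-x, Hba-a1 and Hba-a2 were named after their values were seen. Wnk3 was not analysed here, and some genes that the rule or lists include are not reported here. Figures were drawn with matplotlib 3.10.9.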

Additional observations from a re-analysis of the deposited data

Results flagged for a closer look

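Over both groups together, 36 sets of 4 libraries were tested: the CPM of each Slc12 gene, kinase and adaptor reported, and the ratio, in each group. Of these sets, 1 had a library farther from the others than Dixon's 95% critical value allows, and chance alone gives about 1 in 20. Klhl2 had 105 CPM in ErbB4-/- replicate 3, above the other 3 of its group, with a gap of 0.960 of the range, and its log2 fold change was 0.061 without that library.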

How the results depend on the processing

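Over 18 alternative settings the log2 fold changes were -0.0306 to 0.12 for Slc12a2, 0.0031 to 0.20 for Slc12a5, 0.0695 to 0.14 for Slc12a4 and -0.0303 to 0.0667 for Slc12a7, and none of the 4 passed the threshold under any of these, of which the restriction to the Y-linked pattern, with 1 ErbB4+/+ library, could hardly show a difference. The sign turned for Slc12a2 and Slc12a7 with the length trend removed (-0.0155 and -0.0303) and without ErbB4+/+ replicate 1 (-0.0306 and -0.0192), and for Slc12a7 without ErbB4-/- replicate 4 (-0.0030). With each library left out in turn the ranges were -0.0306 to 0.12 (Slc12a2), 0.0075 to 0.20 (Slc12a5), 0.0695 to 0.14 (Slc12a4) and -0.0192 to 0.0667 (Slc12a7). The difference between the groups in the log2 ratio of Slc12a2 to Slc12a5 then ran from -0.13 to 0.0723. Its sign turned without ErbB4+/+ replicate 3 (0.0723) and without ErbB4-/- replicate 1 (0.0136). The cause was not tested.

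The count of all genes that passed, 4, was 25 with DESeq2 (18872 genes tested), 1 with relative log expression or upper-quartile normalization, 1 with Xist as a covariate, 2 with the length trend removed, 1 among the libraries with the Y-linked pattern and 1 to 13 with each library left out, the highest without ErbB4+/+ replicate 4. Of the listed genes and markers 0 passed, 1 with DESeq2 and 0 to 1 with each library left out, which was Hba-x both times (adjusted p = 0.0472, and 0.0351 without ErbB4-/- replicate 4).

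Same-numbered libraries deviated together at correlations of 0.0837, 0.135, 0.0476 and 0.0236. Differently numbered libraries had correlations from -0.187 to 0.154, a range that holds these values. The numbers were not used as pairs. With the replicate block the log2 fold changes were 0.056 (Slc12a2), 0.098 (Slc12a5), 0.12 (Slc12a4) and 0.024 (Slc12a7), none past the threshold, the ratio difference was -0.042 (smallest possible exact p 0.125) and 1 gene passed in all.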
